A study of Rattus norvegicus with 36 samples.

Results

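The genes Zdhhc2, Anxa7, Atrn, Cd320, Abhd1 and Rbm18, whose RNA differed between livers of rats given 541 mg/kg of a flame retardant and livers of vehicle rats, and which lie outside the classical detoxification families, are described here across all doses. They are 6 of the 14217 genes that the array annotation names with a probe set of their own, and they are read by 10 of the 31042 probe sets tested. Every probe set annotated to 1 of the 6 genes was taken, and no probe set with several gene symbols included any of them. Anxa7, Atrn, Abhd1 and Rbm18 have 2 probe sets each, while Zdhhc2 and Cd320 have 1 each. The genes were chosen by their log2 difference between 541 mg/kg and vehicle samples, so that difference is given below as a description and not as a test.

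The compound was hexachlorocyclopentadienyl-dibromocyclooctane (HCDBCO), a brominated and chlorinated flame retardant. Male Sprague Dawley rats, 7 weeks old when the study began, received it in corn oil by gavage, 5 ml per kg body weight, on each of 5 days, and RNA was taken from the left liver lobe 1 day after the last dose. The dosed groups received 541, 54.1, 5.41, 0.54 or 0.05 mg/kg and the vehicle group received corn oil alone, with 6 rats' samples in each of the 6 groups and 1 Affymetrix 3′ array per sample. All groups shared the strain, sex, diet, gavage and corn oil, and carried no genetic alteration named in the labels.

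The 6 proteins work in different places in the cell. ZDHHC2 belongs to the DHHC family of palmitoyltransferases, membrane enzymes that attach a fatty acid to cysteines of other proteins and so help to hold them at membranes, and annexin A7 (Anxa7, also called synexin) is a calcium-dependent phospholipid-binding protein linked to membrane fusion and secretion. Attractin (Atrn) is a large glycoprotein known in humans both as a membrane-spanning and as a secreted form, and mutations of its gene in mice and rats disturb coat pigmentation and the upkeep of brain myelin. CD320 is the cell-surface receptor that takes up transcobalamin loaded with vitamin B12; ABHD1 is a little-studied member of the alpha/beta hydrolase fold proteins, and RBM18 is a little-studied protein with an RNA recognition motif.

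Values are RMA log2 values, so a difference of 1 means a doubling, and each ± beside a group mean is the SD over 6 samples and each ± beside a difference is the standard error from limma. All 10 measured markers of hepatocytes, the main cell of liver, lay at percentile 92.4 of all probe sets or above. Array medians ran from 5.06 to 5.16, and 1 array, that of 54.1 mg/kg replicate 5, stood apart, with a lower quartile of 3.79 where the other 35 had 3.62 to 3.72. On that scale the mean over all samples ranged among the 10 probe sets from 5.57 for the dimmer Anxa7 probe set to 10.04 for the brighter Atrn probe set. These means rank the brightness of probe sets and not the amounts of the RNAs, since no value was scaled per transcript length. The RNA came from whole liver, so fewer cells of a type and less RNA per cell cannot be told apart in any result below.

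The regions around annotated starts of the genes are shown first. Of the 6 genes, 4 were lower at 541 mg/kg, and their start regions can be set beside that of a gene that was higher. A RefSeq table of assembly GRCr8 held 5 of the 6 genes, Zdhhc2 being the one without an entry. It gives 250 bases before and 50 after an annotated start, which for Anxa7, Atrn and Cd320 lies inside the gene's own record. For Anxa7 the whole window lies inside that record. Capitals mark, on either strand, AGGTCA (a nuclear receptor half-site), TGACNNNGC (the core of the antioxidant response element), CCAAT and GGGCGG (a GC box). The windows are chr15:3870790-3871089 on the plus strand for Anxa7, chr3:138563129-138563428 on the plus strand for Atrn, chr7:15328093-15328392 on the plus strand for Cd320, chr6:31147415-31147714 on the minus strand for Abhd1 and chr3:39884528-39884827 on the minus strand for Rbm18.
Anxa7: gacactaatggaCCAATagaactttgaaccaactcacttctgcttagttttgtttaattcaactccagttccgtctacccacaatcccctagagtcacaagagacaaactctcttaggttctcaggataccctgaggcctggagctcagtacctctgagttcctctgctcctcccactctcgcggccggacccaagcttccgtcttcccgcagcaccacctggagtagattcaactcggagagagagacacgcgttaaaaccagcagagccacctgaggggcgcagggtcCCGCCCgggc
Atrn: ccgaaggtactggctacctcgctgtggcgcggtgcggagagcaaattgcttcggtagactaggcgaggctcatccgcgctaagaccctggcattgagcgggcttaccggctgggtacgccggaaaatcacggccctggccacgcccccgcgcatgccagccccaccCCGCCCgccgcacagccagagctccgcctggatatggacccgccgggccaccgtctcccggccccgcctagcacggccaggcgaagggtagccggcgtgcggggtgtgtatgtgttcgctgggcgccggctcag
Cd320: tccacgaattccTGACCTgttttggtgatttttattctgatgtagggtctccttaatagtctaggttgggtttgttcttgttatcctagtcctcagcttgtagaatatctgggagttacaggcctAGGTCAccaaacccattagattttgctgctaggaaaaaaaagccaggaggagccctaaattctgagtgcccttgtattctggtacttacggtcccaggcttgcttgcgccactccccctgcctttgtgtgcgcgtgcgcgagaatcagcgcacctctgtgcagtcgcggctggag
Abhd1: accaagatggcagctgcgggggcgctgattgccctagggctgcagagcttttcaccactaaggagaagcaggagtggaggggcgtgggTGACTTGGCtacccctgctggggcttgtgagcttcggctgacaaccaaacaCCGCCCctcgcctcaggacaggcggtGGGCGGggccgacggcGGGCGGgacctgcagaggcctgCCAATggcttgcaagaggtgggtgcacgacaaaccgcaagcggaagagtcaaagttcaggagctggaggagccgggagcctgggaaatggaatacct
Rbm18: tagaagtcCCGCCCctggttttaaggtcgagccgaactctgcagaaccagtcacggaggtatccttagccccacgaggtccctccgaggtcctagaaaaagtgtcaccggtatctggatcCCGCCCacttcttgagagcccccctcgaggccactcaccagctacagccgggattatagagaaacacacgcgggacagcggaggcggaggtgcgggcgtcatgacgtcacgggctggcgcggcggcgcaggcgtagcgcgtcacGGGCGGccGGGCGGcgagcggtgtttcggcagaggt

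AGGTCA was in the Cd320 window only, once on each strand, with first bases at −125 and −238 relative to the start, and 16.2% of all 33469 windows in the table held it. TGACNNNGC was in the Abhd1 window only, at −162, and in 12.1% of all windows. GGGCGG was in 4 of the 5 windows, with 3 matches in Abhd1, 4 in Rbm18 and 1 each in Atrn and Anxa7, and in 33.1% of all windows. CCAAT was in the Abhd1 window at −47 and the Anxa7 window at −238, against 37.5% of all windows. The direct repeat of that half-site with 4 bases between the copies and the sequence TATAAA were in none of the 5 windows, while CANNTG (an E-box) was in those of Anxa7 and Abhd1. No 2 of these motifs overlapped where they are capitalised. The GC content was 70.0% for Atrn, 64.7% for Rbm18, 63.7% for Abhd1, 54.3% for Anxa7 and 49.7% for Cd320. None of the 7 motifs was in the windows of all 4 genes that were lower at 541 mg/kg, and a match is a run of letters and no evidence of binding.

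Zdhhc2 and Anxa7 were the genes with higher values at 541 mg/kg. On the Zdhhc2 probe set (1370828_at) the 541 mg/kg samples had a lowest value of 6.62, a median of 6.94 and a highest of 7.04, against 5.93, 6.14 and 6.48 in vehicle samples. Every 541 mg/kg sample lay above every vehicle sample. The difference was 0.73 ± 0.13, a 1.65-fold higher level, and it was the largest in size among the 10 probe sets. By dose the Zdhhc2 means were 6.19 ± 0.21 in vehicle, 6.35 ± 0.27 at 0.05, 6.26 ± 0.27 at 0.54, 6.33 ± 0.15 at 5.41, 6.61 ± 0.30 at 54.1 and 6.92 ± 0.15 at 541 mg/kg. The vehicle group and the 3 lowest doses differed from one another by less than the larger SD of each pair, and the 2 highest doses lay above them in order of dose. The spread at 54.1 mg/kg came mainly from 1 sample, replicate 6, at 6.01, while the other 5 samples of that group lay between 6.62 and 6.82.

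Anxa7 was higher on both of its probe sets. On the brighter one (1368143_at) the 541 mg/kg samples had a lowest value of 7.47, a median of 7.70 and a highest of 7.98, against 6.86, 7.25 and 7.37 in vehicle samples. On the dimmer one (1368142_at) they had 5.71, 5.76 and 6.02, against 5.40, 5.49 and 5.59 in vehicle samples. The groups did not overlap on either probe set. The differences were 0.46 ± 0.10 on the brighter and 0.31 ± 0.09 on the dimmer probe set. At the doses below 541 mg/kg the differences were smaller on both. The brighter probe set differed from vehicle by 0.08 at 0.05, −0.02 at 0.54, 0.09 at 5.41 and 0.20 at 54.1 mg/kg, each ± 0.10, and the dimmer one by 0.07, −0.02, 0.02 and 0.10 in the same dose order, each ± 0.09. Of the 6 genes, Anxa7 was the one whose 2 probe sets both had their step from 54.1 to 541 mg/kg as the largest of the dose series.

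**Figure D1:**
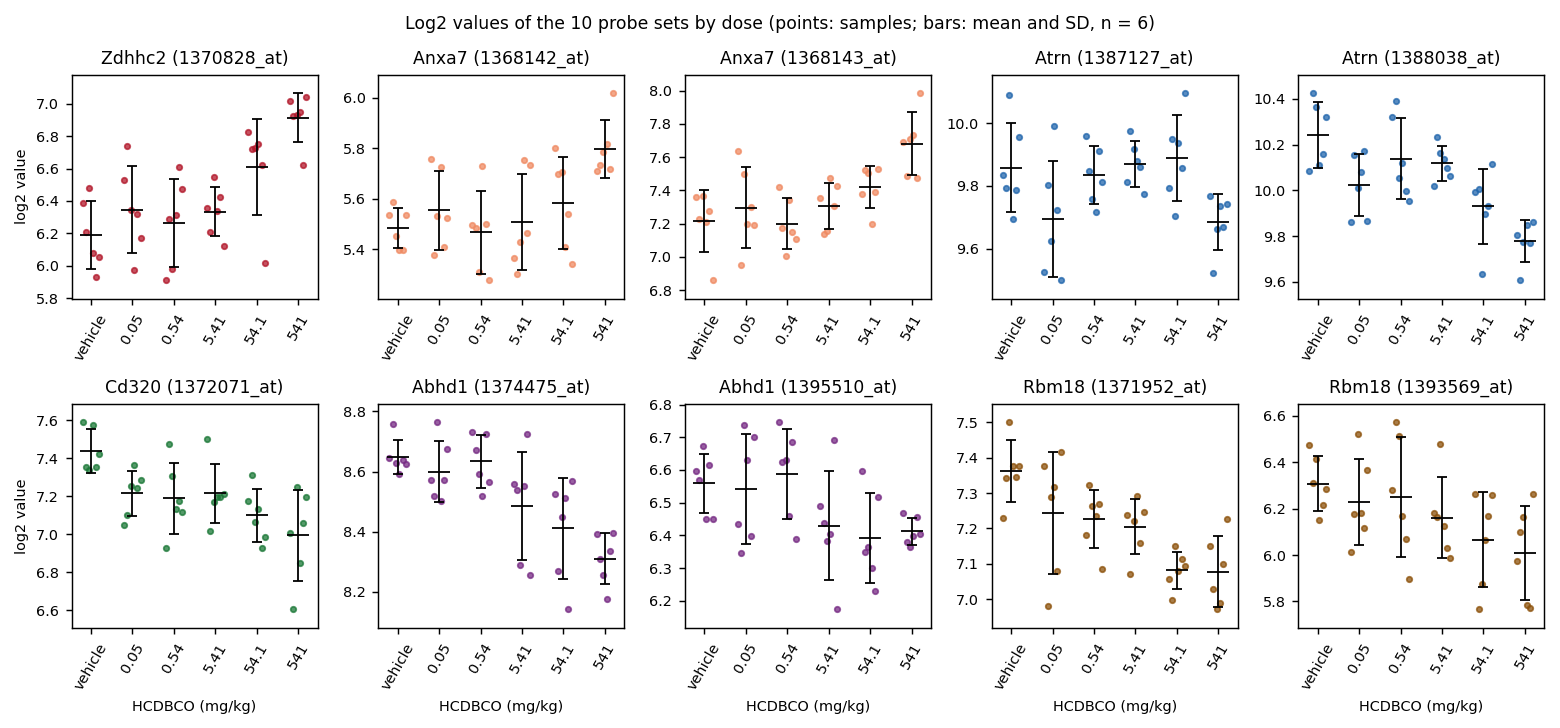
Log2 values of the 10 probe sets (vertical axes, each with its own range) in vehicle and the 5 HCDBCO doses in mg/kg (horizontal axes); points are samples and bars are the mean and SD of 6. Zdhhc2 and both Anxa7 probe sets sit highest at 541 mg/kg, with no overlap with vehicle, while Cd320 and the brighter probe sets of Atrn, Abhd1 and Rbm18 sit lowest there, also with no overlap with vehicle.

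The plot of log2 values by dose shows each sample behind these means and those that follow. Atrn, Cd320, Abhd1 and Rbm18 had lower values at 541 mg/kg. On the brighter Atrn probe set (1388038_at) the 541 mg/kg samples had a lowest value of 9.61, a median of 9.79 and a highest of 9.86, against 10.09, 10.24 and 10.43 in vehicle samples. The groups did not overlap, and the difference was −0.47 ± 0.08, or 0.724 times the vehicle level. The dimmer Atrn probe set (1387127_at) had 9.52, 9.70 and 9.77 at 541 mg/kg, against 9.69, 9.81 and 10.09 in vehicle samples. There the groups overlapped, and the difference was −0.17 ± 0.07. The brighter probe set had its levels, lowest first, in the order 541, 54.1, 0.05, 5.41, 0.54 mg/kg and vehicle, with means of 9.78 ± 0.09, 9.93 ± 0.16, 10.03 ± 0.14, 10.12 ± 0.08, 10.14 ± 0.18 and 10.24 ± 0.14. Each neighbouring pair in this order differed by less than the larger of its 2 SDs.

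Cd320, the vitamin B12 uptake receptor, had a lower mean than vehicle at every dose, as did the brighter Atrn and Abhd1 and both Rbm18 probe sets. On its probe set (1372071_at) the 541 mg/kg samples had a lowest value of 6.60, a median of 7.03 and a highest of 7.25, against 7.34, 7.39 and 7.59 in vehicle samples. The groups did not overlap, although the 541 mg/kg samples had the widest spread of any dose (6.99 ± 0.24, against 7.44 ± 0.11 in vehicle). The differences from vehicle were −0.22 at 0.05, −0.25 at 0.54, −0.22 at 5.41, −0.34 at 54.1 and −0.44 at 541 mg/kg, each ± 0.09. Of the 18 samples at the 3 lowest doses, 16 lay below the vehicle mean, the same number as on the brighter Atrn and Rbm18 probe sets, and the vehicle level was part of the choice of these genes. Set against the mean of those 3 doses instead of vehicle, the 541 mg/kg group was at −0.21 ± 0.08. The 5 differences from vehicle rest on the same 6 vehicle samples and are not separate measurements.

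Abhd1 had its larger differences from vehicle at the 3 highest doses. On the brighter probe set (1374475_at) the 541 mg/kg samples had a lowest value of 8.18, a median of 8.32 and a highest of 8.40, against 8.59, 8.63 and 8.76 in vehicle samples, with no overlap. The differences from vehicle were −0.05 at 0.05, −0.01 at 0.54, −0.16 at 5.41, −0.24 at 54.1 and −0.34 at 541 mg/kg, each ± 0.07. The dimmer probe set (1395510_at) had 6.36, 6.40 and 6.47 at 541 mg/kg, against 6.45, 6.58 and 6.67 in vehicle samples, so that the groups overlapped. Its differences were −0.02, 0.03, −0.13, −0.17 and −0.15 in the same dose order, each ± 0.08. The 2 probe sets took the same course up to 54.1 mg/kg, and only the brighter one was lower again at 541 mg/kg.

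Rbm18 had, on its brighter probe set, the smallest difference of the 6 genes, with 541 and 54.1 mg/kg at nearly the same level. On the brighter probe set (1371952_at) the 541 mg/kg samples had a lowest value of 6.97, a median of 7.06 and a highest of 7.23, against 7.23, 7.36 and 7.50 in vehicle samples, and the groups met without overlapping. The differences from vehicle were −0.12 at 0.05, −0.14 at 0.54, −0.16 at 5.41, −0.28 at 54.1 and −0.28 at 541 mg/kg, each ± 0.06. This was the only one of the 10 probe sets whose mean moved in 1 direction at every dose step. The dimmer probe set (1393569_at) had 5.77, 6.04 and 6.26 at 541 mg/kg, against 6.15, 6.30 and 6.47 in vehicle samples, and overlapped. Its differences were −0.08, −0.06, −0.15, −0.24 and −0.30 in the same dose order, each ± 0.11.

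**Figure D2:**
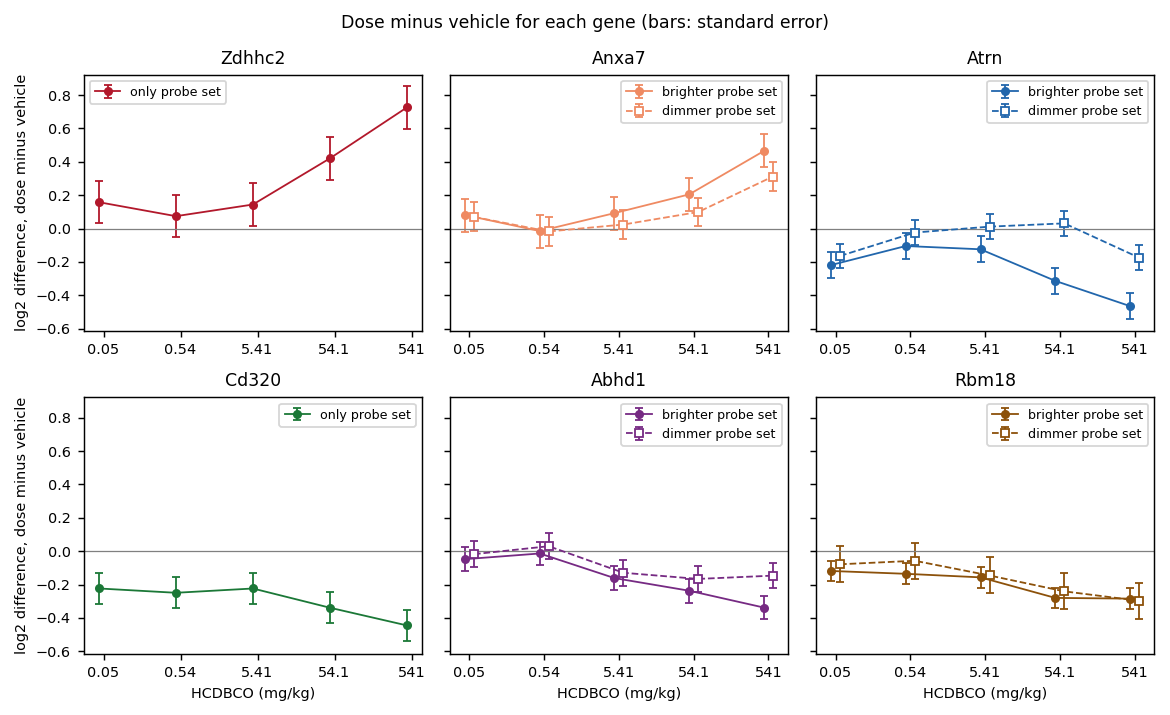
Log2 difference of each dose from vehicle (vertical axis) against HCDBCO dose in mg/kg (horizontal axis, doses evenly spaced), 1 panel per gene; filled circles are the only or brighter probe set, open squares the dimmer one, and bars are the standard error. Zdhhc2 reaches 0.73 and the brighter Anxa7 probe set 0.46 at 541 mg/kg. Cd320 and the brighter Atrn probe set are both at −0.22 at 0.05 mg/kg. The 2 Atrn probe sets part at 54.1 mg/kg, at −0.31 and 0.03. All differences rest on the vehicle samples, which were part of the choice of the genes.

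The plot of differences by dose sets these courses side by side. At a false discovery rate (FDR) of 5% over all probe sets, 6 of the 10 probe sets were past the threshold at 541 mg/kg, where 0.155% of all probe sets were. They were those of Zdhhc2 and Cd320 and the brighter ones of Anxa7, Atrn, Abhd1 and Rbm18, which is how these genes came to be chosen. The samples at 541 mg/kg and in vehicle did not overlap for 7 of the 10, against 0.744% of all probe sets, a figure fixed by the same choice. The member just inside the threshold was the brighter Rbm18 probe set (−0.28 ± 0.06) and the one just outside was the dimmer Anxa7 probe set (0.31 ± 0.09). How many of the 6 stayed inside depended on single samples. Leaving out 1 sample at a time left 2 to 5 inside, with 2 when vehicle replicate 4, 541 mg/kg replicate 1 or 541 mg/kg replicate 4 was left out. Zdhhc2 and the brighter Atrn probe set stayed inside in all 12 such fits, Cd320 in 7, the brighter Anxa7 probe set in 4, the brighter Abhd1 probe set in 3 and the brighter Rbm18 probe set in 2.

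At 54.1 mg/kg none of the 10 probe sets was past the FDR against vehicle in limma, where 0.0741% of all probe sets were, and 8 of the 10 had an unadjusted p below 0.05, as did 2855 of all 31042 probe sets. The brighter Rbm18 probe set, at an adjusted p of 0.0705, passed with dim probe sets left out or arrays weighted by quality, with a smallest adjusted p of 0.0365. Samples at 54.1 mg/kg lay wholly below the vehicle samples for Cd320 and the brighter Abhd1 and Rbm18 probe sets, 3 of the 10, where 0.596% of all probe sets were separated in either direction. The vehicle samples were part of the choice of the genes, so differences from vehicle at any dose are favoured by it and are given as a description. At 5.41, 0.54 and 0.05 mg/kg the percentage of all probe sets past the FDR against vehicle was 0, although 1498, 1297 and 939 of them had an unadjusted limma p below 0.05. Of the 10 probe sets, 3 had such a p at 5.41, 2 at 0.54 and 3 at 0.05 mg/kg.

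The means compared among the 4 lower doses use none of the samples that chose the genes, while the spread in the fit is pooled over all 6 groups, those samples included. The question there was whether the 6 genes already differed at 54.1 mg/kg from the 3 lowest doses. None of the 10 probe sets passed the FDR in that contrast in limma, where 0.0161% of all probe sets did, and 5 of the 10 had an unadjusted p below 0.05, as did 1887 of all 31042. Zdhhc2 was 0.30 ± 0.10 higher at 54.1 mg/kg than the mean of 0.05, 0.54 and 5.41 mg/kg, with an adjusted p of 0.637 and a 95% interval from 0.08 to 0.51. The brighter Atrn, Abhd1 and Rbm18 probe sets were lower by −0.16 ± 0.06, −0.16 ± 0.06 and −0.14 ± 0.05 on the log2 scale, with limma adjusted p of 0.691, 0.643 and 0.643. Cd320 was at −0.11 ± 0.08 and the brighter Anxa7 probe set at 0.15 ± 0.08, with intervals that included 0. A linear trend over the 4 lower doses passed the FDR for none of the 10 in limma, against 0.0129% of all probe sets, with 5 of the 10 and 1841 of all 31042 at an unadjusted p below 0.05. The smallest p was that of the brighter Abhd1 probe set, at −0.07 ± 0.02 per dose step and an adjusted p of 0.615. The dimmer Atrn probe set ran the other way from the brighter one, at 0.06 ± 0.02 against −0.03 ± 0.02 per step. An F-test of any difference among the 4 lower doses likewise passed for none of the 10, against 0.00644% of all probe sets, with 4 of the 10 and 1279 of all 31042 at an unadjusted p below 0.05. In a limma fit of the 24 lower-dose samples alone, none of the 10 passed the FDR in the contrast or the trend, and 4 of the 10 had an unadjusted p below 0.05 in each, as did 1840 and 1821 of all 31042.

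Within groups, samples that read high on 1 probe set of a gene mostly read high on the other. With group means removed, Pearson's r over the 36 samples was 0.71 for Abhd1, 0.65 for Atrn and 0.51 for Anxa7, and Spearman's rho was 0.70, 0.69 and 0.50 in the same order. Permutation within groups gave two-sided adjusted p of 8e-05, 0.0004 and 0.00299 for the 3 values of r over the 4 genes compared, and 0.00012, 0.00018 and 0.00561 for rho. Without the 2 samples farthest from the median, r was 0.63, 0.69 and 0.46, with adjusted p of 0.00034, 0.00034 and 0.0122. For Rbm18, r was 0.25 and rho 0.21 (permutation p of 0.16 and 0.25), and r was 0.23 without those 2 samples. Its 2 probe sets gave nearly the same difference at 541 mg/kg, −0.28 and −0.30, but the sample-to-sample spread of one was not shown to follow the other.

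**Figure D3:**
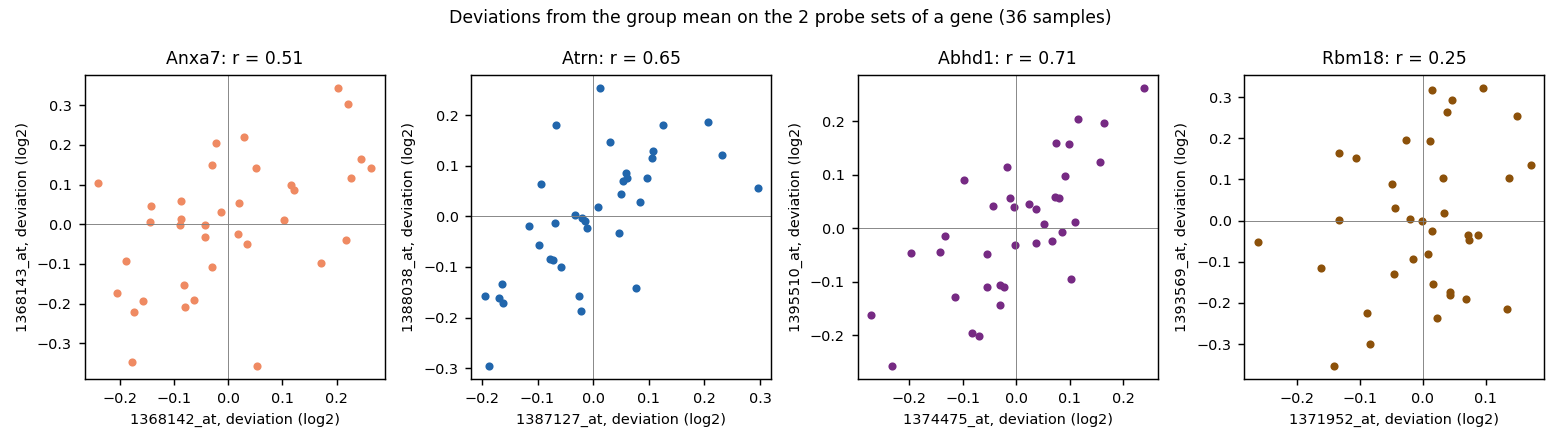
Deviation of each of the 36 samples from its group mean (log2) on 1 probe set of a gene (horizontal axis) against the other (vertical axis), for the 4 genes with 2 probe sets. The points rise together for Abhd1 (r = 0.71), Atrn (r = 0.65) and Anxa7 (r = 0.51) and scatter for Rbm18 (r = 0.25).

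The plot of deviations on paired probe sets shows these relations. The 2 Atrn probe sets followed one another within groups, and their difference over dose was examined after the values were seen. The brighter minus dimmer value of Atrn was 0.39 ± 0.14 in vehicle, 0.33 ± 0.12 at 0.05, 0.31 ± 0.17 at 0.54, 0.25 ± 0.03 at 5.41, 0.04 ± 0.10 at 54.1 and 0.09 ± 0.03 at 541 mg/kg. At 541 mg/kg every sample lay between 0.04 and 0.12, against 0.25 to 0.63 in vehicle. At 54.1 mg/kg the samples lay between −0.07 and 0.20, against 0.09 to 0.55 at the 3 lowest doses. The mean gap between the probe sets was smallest at the 2 highest doses. The 541 mg/kg and vehicle samples did not overlap, as for 0.376% of the 4525 genes with at least 2 probe sets; Atrn was chosen for the fall of its brighter probe set between these groups, which favours a smaller gap there. The 54.1 mg/kg samples overlapped with those of the 3 lowest doses. The 54.1 mg/kg samples differed from the 18 samples of the 3 lowest doses by −0.25 ± 0.06. A limma fit of the same quantity over all 4525 genes with at least 2 probe sets gave it an adjusted p of 0.424, so it did not pass the FDR, and 0% of the genes did, although 244 had an unadjusted p below 0.05. Atrn had the smallest p of the 4525 genes in that fit, and with the 4 lower doses alone in the fit its limma adjusted p was 0.761. A two-sided exact permutation test over the 134596 ways to choose 6 of the 24 samples, chosen after the values were seen, gave an unadjusted p of 8.92e-05 for Atrn alone. Without 54.1 mg/kg replicate 5 the difference was −0.26, with an exact p of 0.000238. In the other genes with 2 probe sets the same difference was 0.08 for Anxa7, −0.04 for Abhd1 and 0.00 for Rbm18, with exact p from 0.298 to 0.967.

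**Figure D4:**
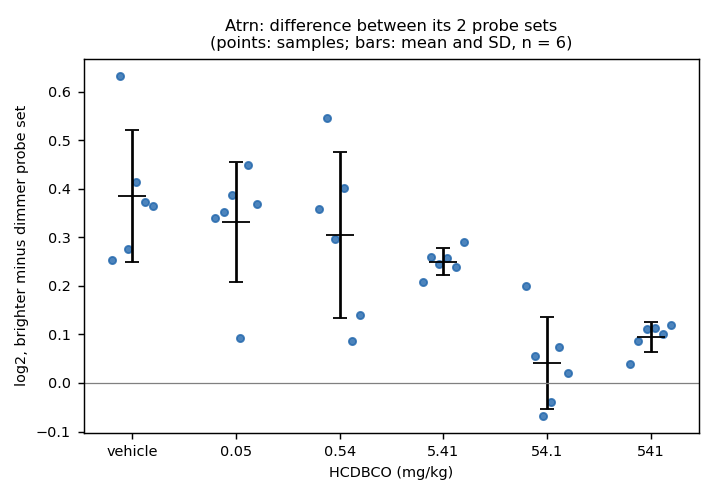
Brighter minus dimmer Atrn probe set (log2, vertical axis) in vehicle and the 5 HCDBCO doses in mg/kg (horizontal axis); points are samples and bars are the mean and SD of 6. The mean lies between 0.25 and 0.39 in vehicle and up to 5.41 mg/kg, and at 0.04 and 0.09 at 54.1 and 541 mg/kg.

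The plot of the Atrn gap by dose shows every sample of each group. Between the 6 genes, deviations were compared in the same way. Over the 15 pairs of the 6 genes, r within groups ran from −0.18 to 0.35 and rho from −0.13 to 0.25. None passed a 5% FDR by permutation within groups or an unadjusted p of 0.05, the lowest p being 0.101. With each array centred on its median, Anxa7 and Rbm18 had an r of 0.42, with a permutation p of 0.0427 and an adjusted p of 0.558. A relation between any 2 of the genes from sample to sample was therefore not shown.

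Of the relations to lists of cell type markers, 1 passed the FDR by permutation, that of Abhd1 to endothelial markers. Across 6 genes and 8 lists of liver cell type markers, 48 relations compared after the values were seen, the brighter Abhd1 probe set correlated within groups with the mean of 8 markers of sinusoidal endothelium, the cells that line the small vessels of the liver. Pearson's r was 0.61 and rho was 0.60 over 36 samples, with permutation p of 0.00013 and 0.00046 and adjusted p of 0.00624 and 0.0221. Without the 2 samples farthest from the median r was 0.55, with an adjusted p of 0.047. That check kept 54.1 mg/kg replicate 5, the array that stood apart. This sample had the lowest deviation of all both for Abhd1 (−0.27) and for the list (−0.20), and no version with centred arrays was run. The r was 0.64 over the 24 samples of the 4 lower doses and 0.59 over the other 12, and the dimmer Abhd1 probe set gave 0.47 over all 36. Abhd1 was not alone in this, since 708 of 31034 probe sets, or 2.28%, had an r to the list at least as high. The permutation p does not measure how common such an r is among probe sets, so the relation was not shown to be particular to Abhd1. Single markers gave r of 0.62 for Kdr, 0.62 for Stab1, 0.56 for Stab2, 0.46 for Eng, 0.43 for Ehd3, 0.33 for Fcgr2b, 0.32 for Pecam1 and 0.03 for Lyve1, with Kdr a receptor for vascular growth factor and Stab1 and Stab2 scavenger receptors of these cells. No other of the 48 relations passed the FDR over all samples.

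**Figure D5:**
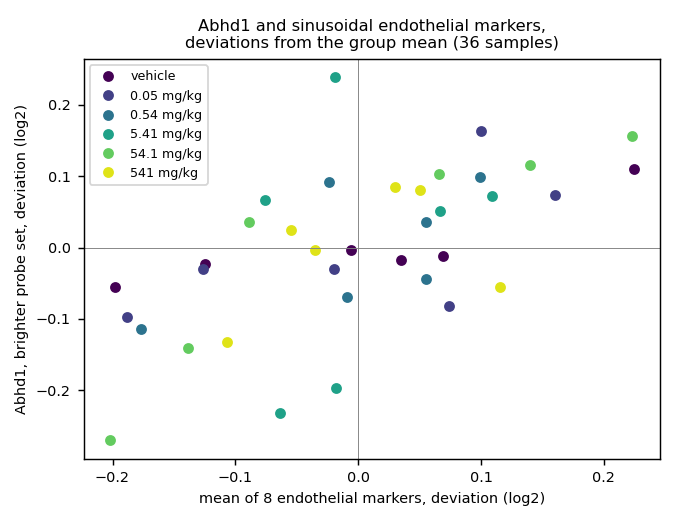
Deviation of the brighter Abhd1 probe set from its group mean (log2, vertical axis) against that of the mean of 8 sinusoidal endothelial markers (log2, horizontal axis) for the 36 samples, coloured by dose. The points run from lower left to upper right, with r of 0.61.

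The plot of Abhd1 against endothelial markers shows the samples behind that value. The endothelial list itself was lower at 541 mg/kg, by its mean, as Abhd1 was. Its mean was 8.27 ± 0.08 at 541 mg/kg, with samples from 8.16 to 8.39, against 8.44 ± 0.15 in vehicle, with samples from 8.24 to 8.66. All 8 measured markers had a lower mean at 541 mg/kg, with a median difference of −0.16 against 0.01 over all genes. None was past the FDR in limma, where 0.155% of all probe sets were. An unadjusted limma p below 0.05 was found for 4 of the 8 and for 2816 of all 31042 probe sets. No marker of the list was near 0, with means over all samples from 6.42 for Pecam1 to 9.86 for Lyve1. At 54.1 mg/kg the list mean was 8.42 ± 0.17, close to vehicle, while Abhd1 was at −0.24 ± 0.07. The part of endothelial markers in the Abhd1 result was not tested.

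The list mean of the hepatocyte markers was 13.16 ± 0.04 at 541 mg/kg against 13.25 ± 0.08 in vehicle. Of the 10 markers 8 were lower, none past the FDR in limma and 2 with an unadjusted p below 0.05. The median difference was −0.04, and the largest in size were those of Tat at −0.47 and Apoa1 at −0.17. The 3′ minus 5′ difference of the actin control probe sets, a measure of RNA integrity, was 1.18 ± 0.09 at 541 mg/kg and 1.13 ± 0.08 in vehicle. The part of these values in the results for the 6 genes was not tested.

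Genes whose sample-to-sample pattern was most like each member were found over the 24 samples of the 4 lower doses, by the highest r of deviations from group means among 9563 genes above the median level. They were Eif4e3, Cyp17a1 and Racgap1 for Zdhhc2 (r of 0.74, 0.74 and 0.73) and Thra, Mbnl2 and Psma6 for Anxa7 (0.70, 0.68 and 0.67). For Atrn they were Cdkn2c, Ranbp2 and Cnbd2 (0.67, 0.66 and 0.64), and for Cd320 they were Bcl7b, Lysmd3 and Gtf2a2 (0.73, 0.66 and 0.65). For Abhd1 they were Dlc1, Tor1b and Ibtk (0.87, 0.86 and 0.85), and for Rbm18 they were Kin, Nagk and Itpkc (0.79, 0.76 and 0.76). In the 12 samples that this search did not use, 10 of the 18 values of r were above 0, and they ran from −0.31 for Cyp17a1 to 0.48 for Mbnl2. At 541 mg/kg the 18 genes differed from vehicle by −0.28 ± 0.13 (Kin) to 0.27 ± 0.23 (Racgap1). None was past the FDR in limma, where 0.155% of all probe sets were.

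In the wider families of the 6 genes, no gene was past the FDR at 541 mg/kg, where 0.155% of all probe sets were. With so small a share, none past the FDR in lists of this size says little about the families. An unadjusted limma p below 0.05 at that dose was found for 2816 of all 31042 probe sets, the share to set beside each count below. For Zdhhc2, 27 other palmitoyltransferases, their partners and depalmitoylases were measured, with 16 higher and 11 lower at 541 mg/kg, none past the FDR in limma, 2 with an unadjusted p below 0.05, and a median difference of 0.01, against 0.01 over all genes. Zdhhc23 was at −0.23 ± 0.09 (adjusted p = 0.334) and Zdhhc9, which acts on Ras proteins, at 0.14 ± 0.05 (adjusted p = 0.392). Of 11 proteins known as substrates of ZDHHC2, 8 were higher and 3 lower, none past the FDR in limma and 1 with an unadjusted p below 0.05. Akap5, a kinase anchoring protein, was at 0.49 ± 0.20 (adjusted p = 0.41) and Snap25, a vesicle fusion protein, at 0.05 ± 0.06 (adjusted p = 0.85). Both were dim, with vehicle means of 4.22 and 3.59, below the median of 5.11 over all probe sets.

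For Anxa7, 15 other annexins and partners were measured, 11 higher and 4 lower at 541 mg/kg, with a median of 0.07, none past the FDR in limma and 2 with an unadjusted p below 0.05. Anxa4 was at 0.22 ± 0.07 (adjusted p = 0.242) with its other probe set at 0.13. Sri (sorcin), a calcium-binding partner of annexin A7, was at 0.26 ± 0.09 (adjusted p = 0.315) with its other probe set at 0.22. For Atrn, 7 attractin partners and melanocortin genes were measured, 4 higher and 3 lower, none past the FDR in limma or at an unadjusted p below 0.05. Pomc, the melanocortin precursor, was at 0.14 ± 0.08 (adjusted p = 0.629) and Asip (agouti), which needs attractin to act on mouse pigment cells, at −0.07 ± 0.06 (adjusted p = 0.761). In vehicle the mean of these 7 genes was 4.06 and that of Asip 2.66, below the median of 5.11 over all probe sets.

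For Cd320, 19 genes of vitamin B12 uptake and use were measured, 12 higher and 7 lower, with a median of 0.04, none past the FDR in limma and 3 with an unadjusted p below 0.05. Cblif (gastric intrinsic factor) was at 0.24 ± 0.08 (adjusted p = 0.246) and Lrp2 (megalin), an endocytic receptor that also takes up transcobalamin, at 0.20 ± 0.09 (adjusted p = 0.456). The vehicle mean of Cblif, 4.80, lay below the median of 5.11 over all probe sets. For Abhd1, 18 other alpha/beta hydrolase domain genes were measured, 12 higher and 6 lower, with a median of 0.02 and a range from −0.48 to 1.19. None was past the FDR in limma and 1 had an unadjusted p below 0.05. That one was Abhd2 at −0.48 ± 0.12 (adjusted p = 0.0931), while Abhd6, which breaks down monoacylglycerol, was at 0.13 ± 0.07 (adjusted p = 0.559) with its other probe set at −0.06. For Rbm18, 37 other RNA-binding motif genes were measured, 14 higher and 23 lower, with a median of −0.03 and a range from −0.42 to 0.13. None was past the FDR in limma and 4 had an unadjusted p below 0.05. Rbm7, a part of nuclear RNA decay, was at −0.26 ± 0.09 (adjusted p = 0.25, other probe set −0.06) and Rbm39, a splicing factor, at −0.19 ± 0.07 (adjusted p = 0.315, other probe sets −0.12 to −0.18).

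The chromosomal neighbours of the 6 genes differed from vehicle at 541 mg/kg by −0.11 to 0.03. In the GRCr8 gene table, used for neighbour relations only, Rbm18 overlaps at its start with Mrrf, which runs the other way and encodes a mitochondrial ribosome recycling factor. Mrrf was at −0.01 ± 0.05 (limma adjusted p = 0.976). Abhd1 overlaps at its end with Preb, which runs the other way, and Preb was at −0.07 ± 0.08 (limma adjusted p = 0.834), with Cgref1 on the other side of Abhd1 at −0.04 ± 0.10. The measured neighbours of the other genes were at −0.05 ± 0.08 (Cnot7) and −0.10 ± 0.10 (Micu3) for Zdhhc2, −0.11 ± 0.09 (Mss51) for Anxa7, −0.01 ± 0.08 (Gfra4) for Atrn and 0.03 ± 0.05 (Ndufa7) for Cd320. Of these 8 neighbours Mss51 had the smallest limma adjusted p, 0.772. Mss51, Gfra4 and Cgref1 were dim, with means over all samples of 4.68, 3.61 and 4.25, below the median of 5.11 over all probe sets.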

How the data were processed

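Liver RNA of 36 rats' samples was measured on Affymetrix 3′ arrays, and groups and replicate numbers came from the sample titles. Per the submitters' processing notes, the authors made the deposited values with RMA and the affy package (versions not given), and they were taken as log2 values; with no raw intensities used here, the log base could not be set against them. Values ran from 1.94 to 14.7. Of 31099 probe sets, 57 controls were left out.

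One fit with 6 group means over all samples was made with limma 3.58.1 (lmFit, eBayes) in R 4.3.3, where the authors' design text names another package. Tests were two-sided, with Benjamini-Hochberg adjustment over all 31042 probe sets and an FDR of 5%. Every adjusted p of a gene is from limma unless a permutation is named (100000 resamples within groups, in Python 3.11.15 with numpy 2.4.6). Genes and probe sets were paired through the platform annotation; where a gene stands for several probe sets, the one with the highest mean was used. The fit was tested on simulated data.

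The 6 genes and all gene lists were chosen with earlier results of these data known. Besides the 6 genes, the text names the 2 genes of each pathway list with the smallest p at 541 mg/kg, measured genomic neighbours, and the 3 most alike genes. The labels give no animal numbers, dates or batches, so p-values measure only the spread between these samples, and the number of arrays limits the precision. Alternatives were scaling, a filter on dim probe sets, array weights, fewer groups, a replicate block, an intensity trend and leaving out samples.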

Additional observations from a re-analysis of the deposited data

Results flagged for a closer look

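Within groups of 6, a sample was picked out where its gap to the nearest other sample exceeded Dixon's 95% limit for 6 values. This happened in 6 of the 60 combinations of probe set and group, where chance picks out about 1 in 20 groups. Zdhhc2 had 541 mg/kg replicate 5 at 6.62, with the others from 6.92 to 7.04, and 54.1 mg/kg replicate 6 at 6.01, with the others from 6.62 to 6.82. The dimmer Anxa7 probe set had 541 mg/kg replicate 6 at 6.02, above others from 5.71 to 5.82. The brighter Anxa7 probe set had vehicle replicate 6 at 6.86, below others from 7.21 to 7.37. The brighter Atrn probe set had 541 mg/kg replicate 2 at 9.61, below others from 9.77 to 9.86. The brighter Abhd1 probe set had vehicle replicate 2 at 8.76, above others from 8.59 to 8.64; that sample also had the highest endothelial marker mean of the vehicle group, 8.66. The 541 mg/kg and vehicle samples did not overlap on any of these 5 probe sets, with the named samples included. The genes were chosen for that contrast, which favours such a separation, so it cannot show how much the named samples matter. Over all probe sets, 0.744% were separated in this way.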

How the results depend on the processing

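Across the alternatives run, no difference of the 6 genes between 541 mg/kg and vehicle changed its sign. The genes were chosen for that difference and the alternatives reuse the same samples, so the stable sign is no support for it. In the same alternatives, none of the 10 probe sets passed the FDR for 54.1 mg/kg against the 3 lowest doses. None passed it for the trend over the 4 lower doses either. The counts over all probe sets did change. For 54.1 mg/kg against the 3 lowest doses it was 5, and became 9 with probe sets at or above the median level only, 13 with array quality weights and 5 to 10 when 1 sample was left out, with 10 without replicate 5 at 0.05 mg/kg, 9 without replicate 3 at 0.54 or replicate 5 at 54.1 mg/kg, and 8 without replicate 5 at 0.54 or replicate 6 at 54.1 mg/kg. For the trend it was 4, and became 2 with each array centred on its median and 1 to 5 when 1 sample was left out, 1 being without 0.05 mg/kg replicate 3. Against vehicle at 541 mg/kg it was 48, and became 83 with that filter, 80 with weights, 31 when the fit held the 2 compared groups alone and 18 to 63 when 1 sample was left out, with 18 and 21 without 541 mg/kg replicate 4 or 1 and 25 without vehicle replicate 4. Against vehicle at 54.1 mg/kg it was 23, and became 37, 64 and 43 in the same 3 settings and 5 to 36 when 1 sample was left out, with 5, 36, 15 and 14 without vehicle replicate 1, 2, 5 or 6, 15 without 54.1 mg/kg replicate 1, 2 or 3, 7 without replicate 4 and 35 without replicate 5 of that dose. The cause was not tested. At 541 mg/kg, 6 of the 10 probe sets were past the FDR, 4 with arrays centred, 3 when the fit held the 2 compared groups alone, and 6 when dim probe sets were left out, arrays were weighted or the prior followed intensity. Against vehicle at 54.1 mg/kg, the brighter Rbm18 probe set passed with that filter or with array weights (smallest adjusted p = 0.0365, against 0.0705). The relation of Atrn to stellate cell and fibroblast markers, r of −0.40 with an adjusted p of 0.346, became −0.54 with an adjusted p of 0.047 by permutation without the 2 samples farthest from the median. Pairing of the samples by replicate number was not shown. The mean correlation of same-numbered samples ran from −0.03 to 0.11, the highest for replicate 4, against −0.004 for samples of other numbers. Of the 36 samples, 5 correlated best with a sample of their own number. With the replicate number as a block the counts were 7 and 5 of all probe sets for the 2 comparisons of lower doses, and 3 of the 10 at 541 mg/kg. No detection calls were used, so how far each probe set lay above background was not assessed.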
